A study of Homo sapiens with 12 samples.

Results

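Cholesterol synthesis, uptake and efflux were followed through 34 genes, taken by symbol from a list of pathway members. No measured value served to select them, but the list was chosen with earlier results of these data known. All 34 were found among 19647 genes, and all 34 passed the filter for testing, an FPKM (fragments scaled to transcript length and library size) of 1 or more in at least 3 of 12 libraries, which left 11908 genes. The study sequenced enriched mRNA of A549, an established human non-small cell lung cancer line. Its 4 genotypes, with 3 libraries each and no drug treatment in any, were NR0B1 overexpression, WT-overexpression control, NR0B1 knockdown by a short hairpin RNA (shNR0B1), and WT-knockdown control (shNC). The vector and its promoter, the hairpin's target, and whether the cells were clones or pools were not given in the labels, which say no more of what either control carries. Whether replicates came from separate cultures is not labelled; p-values therefore measure the spread between these libraries alone, which may be technical.

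Cholesterol is built in the endoplasmic reticulum from acetyl-CoA through mevalonate and squalene. The transcription factor SREBP2, made from SREBF2, turns on the enzymes of the route and the uptake of lipoprotein cholesterol when sterols are low; SCAP escorts it to the Golgi for cleavage, and INSIG proteins hold it back when sterols are high. The liver X receptors, NR1H2 and NR1H3, sense oxidised sterols and turn on efflux genes such as ABCA1 and ABCG1 together with SREBF1 and MYLIP, so synthesis and efflux are commonly regulated in opposite directions. NR0B1 (DAX1) is a nuclear receptor without a known ligand that mostly represses transcription.

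Values are CPM, gene counts scaled to library size, unless FPKM is named. Log2 fold changes are edgeR estimates with an approximate standard error (SE), and every adjusted p is from edgeR (quasi-likelihood F test, Benjamini-Hochberg over the 11908 genes). A gene is called at an adjusted p below 0.05. Libraries held 15049011 to 22797076 expected counts. NR0B1 stood at 98.9, 81.8 and 84.2 CPM with overexpression and at 17.9, 60.1 and 55.2 in that control, a log2 fold change of 0.99 (SE 0.38, adjusted p = 0.0912), which did not pass. In the knockdown it stood at 2.99, 3.31 and 5.84 CPM against 16.3, 21.1 and 13.3, and fell by 2.06 on the log2 scale (SE 0.42, adjusted p = 0.00593). Knockdown replicate 2 is described apart throughout. Knockdown replicates 2 and 3 shared the lowest Spearman correlation within that group, 0.922, so this value does not single out replicate 2. Overexpression control replicate 1, which also held the least NR0B1 of its group, shared with replicate 3 a lowest value of 0.954. Values of members without knockdown replicate 2 or without overexpression control replicate 1 are given where the omission changed a call in either arm. For the other comparisons the genes that joined or left are named. All 5 epithelial markers of the fixed list had a mean FPKM of 1 or more (summed FPKM 1257 to 2953 across libraries). Most of that sum was KRT8 and KRT18. The lowest sum was that of knockdown replicate 2, with KRT8 at 590 and KRT18 at 547 FPKM. In knockdown replicates 1 and 3, KRT8 stood at 1090 and 1287 and KRT18 at 1051 and 1334 FPKM. EPCAM ran from 0.23 to 2.6 FPKM and was below 1 in every overexpression and overexpression control library. Of 6 alveolar type 2 markers, ABCA3 alone had a mean FPKM of 1 or more, and SFTPA1 was at 0 in every library. The summed FPKM of fibroblast, endothelial and leukocyte markers reached at most 0.84, 0.28 and 1.47.

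Compared per length, the members spanned from 79.7 FPKM for NPC2, the soluble lysosomal cholesterol carrier, to 1.89 FPKM for HSD17B7, a late sterol ketoreductase (means over 12 libraries). FDFT1, squalene synthase, followed at 73.1 FPKM, then NR1H2 at 38.9 and HMGCS1 at 36.7. At the lower end stood MVD, the mevalonate diphosphate decarboxylase, at 4.73 FPKM and MVK, mevalonate kinase, at 3.83. These levels leave out assembled rows without an Ensembl identifier, which held 84.4% of the counts of HSD17B7, so its place as the lowest member is uncertain. Such rows also held 50.1% of the counts of ABCG1, 44.2% of SCAP, 35.6% of SREBF1, 33.4% of MYLIP, 26.8% of MVD, 23.3% of INSIG1 and 21.2% of STARD4. Of the 33 pairs of neighbours in this order, 32 overlapped in their ranges over libraries. The exception was FDFT1 (lowest library 56.1 FPKM) above NR1H2 (highest library 56.0 FPKM). HMGCS1 had the widest gap between group means among the enzymes of synthesis, 79.6 FPKM with overexpression against 18.5 in its control.

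**Figure D1:**
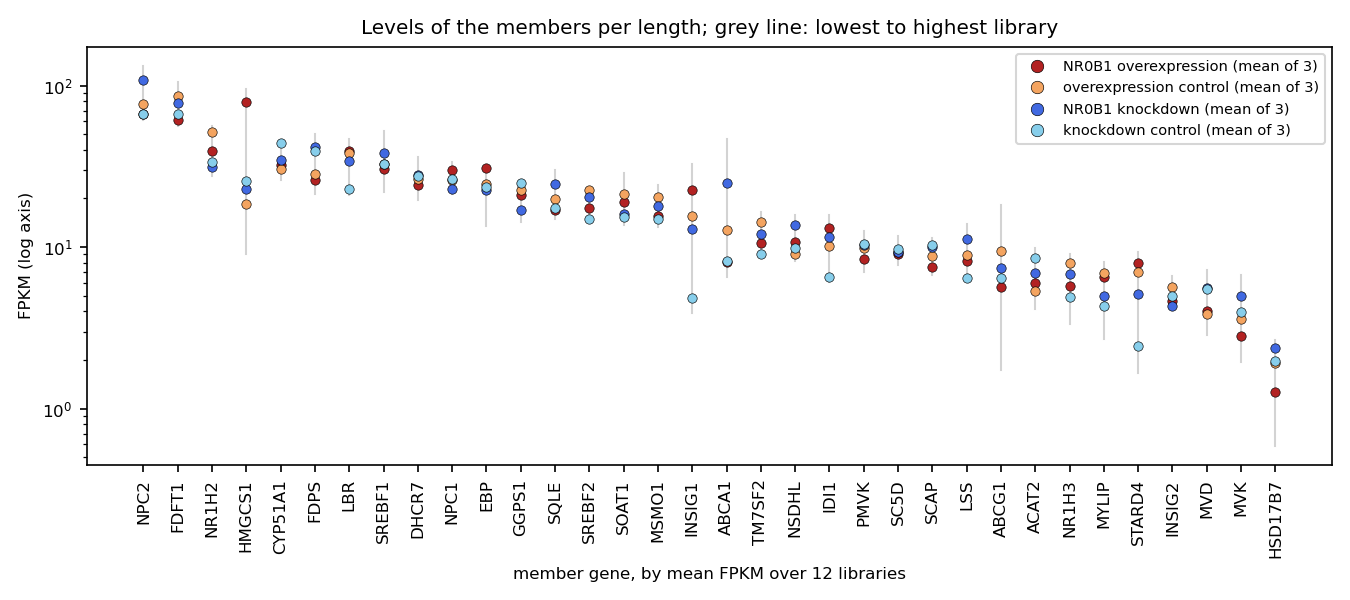
Mean FPKM (log axis) of each member in the 4 groups (points, n = 3 libraries each), ordered by the mean over 12 libraries; grey lines run from the lowest to the highest library. Most neighbours overlap, HMGCS1 separates the overexpression group, and INSIG1 and STARD4 have their lowest group mean in the knockdown control. Assembled rows without an Ensembl identifier are left out.

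With NR0B1 overexpression, 4 of 34 members were called, 1 higher and 3 lower, which is 11.8% beside 18.1% of all genes tested (9.87% higher and 8.2% lower). HMGCS1 rose, and TM7SF2, SREBF2 and NR1H2 fell. Without overexpression control replicate 1 the count was again 4 (25.3% of all genes), without knockdown replicate 2 it was 7 (27.7% of all genes), and with assembled transcripts added to the gene sums it was 9 (23.3% of all genes). In the knockdown 10 of 34 were called, 9 higher and 1 lower, or 29.4% beside 23.9% of all genes tested (12.4% higher and 11.5% lower). IDI1, LSS, LBR, TM7SF2, SREBF2, INSIG1, STARD4, NPC2 and ABCA1 rose, and GGPS1 fell. The median log2 fold change of the members was -0.18 with overexpression, beside -0.03 over all genes, and 0.23 in the knockdown, beside 0.03. Without overexpression control replicate 1 the first of these was -0.09, with 15 members above and 19 below 0 in place of 10 and 24. In that setting GGPS1, LSS, SC5D, SOAT1 and SREBF1, none of them called, went from values below 0 to values of 0.01 (SOAT1) to 0.26 (SREBF1). In bulk RNA, fewer cells with a transcript and less of it per cell cannot be told apart. Among the wide departures from the gene means in the plot of each library are HMGCS1, high in the overexpression libraries, and INSIG1 and STARD4, low in the knockdown control. ABCG1 departed in both directions within the knockdown, at 1.52 in replicate 2 and at -1.32 and -1.75 in replicates 1 and 3 (log2).

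**Figure D2:**
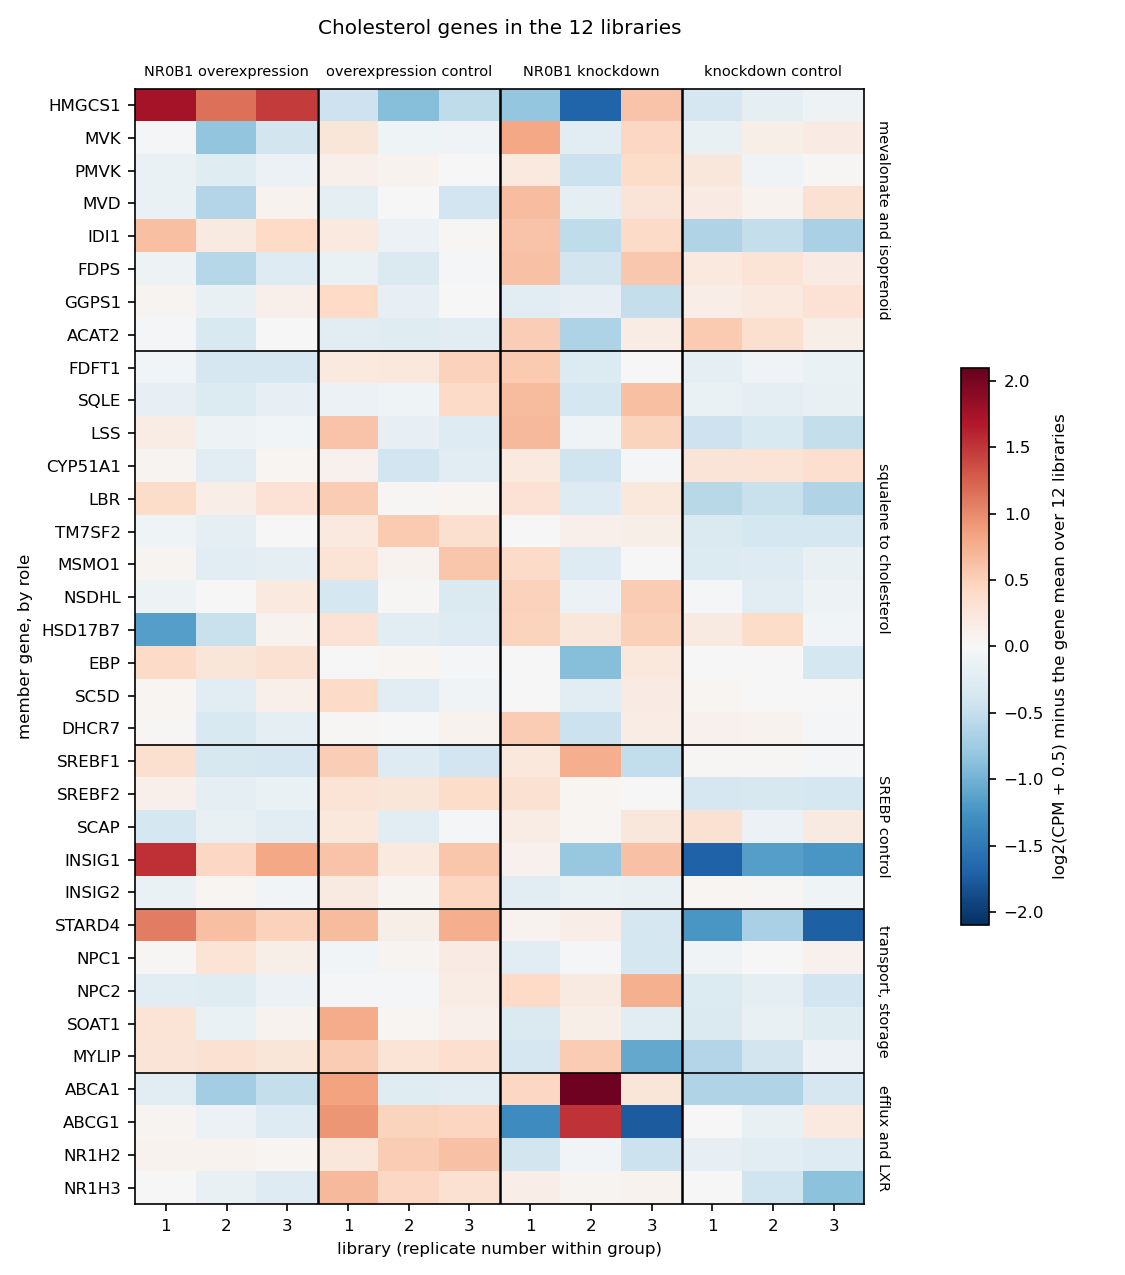
Log2(CPM + 0.5) of each member in each of 12 libraries, minus the gene's mean over them, with members ordered by role and libraries by group. HMGCS1 is high in all 3 overexpression libraries, and in knockdown replicate 2 nearly all synthesis enzymes are low while ABCA1 and ABCG1 are high.

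Among the 8 genes of the mevalonate and isoprenoid steps, 1 was called with overexpression. HMGCS1, the cytosolic HMG-CoA synthase that condenses acetyl-CoA units ahead of mevalonate (chr5:43289395-43313512, minus strand, GRCh38), stood at 413, 276 and 342 CPM in the overexpression libraries and at 91.0, 66.1 and 84.5 in their control. The groups did not overlap, as was the case for 43.5% of all genes in this comparison. Its log2 fold change was 2.09 (SE 0.45), or 4.27-fold, with an adjusted p of 0.0114. With single libraries omitted the value lay between 1.94 and 2.24, and the adjusted p reached 0.0505 without overexpression control replicate 2. In the knockdown HMGCS1 stood at 69.9, 38.0 and 187 CPM against 96.6, 108 and 115 in the control, so that replicate 3 was above and replicates 1 and 2 below every control library (log2 -0.11, SE 0.43, adjusted p = 0.87; 0.27 without replicate 2, adjusted p = 0.575). All counts of HMGCS1 on Ensembl transcripts fell on a pair of annotated transcripts, HMGCS1-202 with 59.6% and HMGCS1-201 with 40.4%. Another 2.16% of its counts lay on assembled rows without such an identifier.

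The letters before the RefSeq start of HMGCS1 are shown because it was the 1 synthesis enzyme that rose with overexpression; they are 250 bases of GRCh38.p14 (chr5:43313413-43313662, minus strand, 5′ to 3′). Capitals mark the NF-Y box CCAAT, here read on the other strand as ATTGG, at bases 155 to 151 and 100 to 96 before the start. GENCODE 29 places the start of this gene and of the 4 shown further on upstream of RefSeq's, so the last 26 (SREBF2) to 102 (INSIG1) bases of each stretch lie within the gene as GENCODE draws it. The second box of HMGCS1 and the INSIG1 E-box are inside those bases.
HMGCS1: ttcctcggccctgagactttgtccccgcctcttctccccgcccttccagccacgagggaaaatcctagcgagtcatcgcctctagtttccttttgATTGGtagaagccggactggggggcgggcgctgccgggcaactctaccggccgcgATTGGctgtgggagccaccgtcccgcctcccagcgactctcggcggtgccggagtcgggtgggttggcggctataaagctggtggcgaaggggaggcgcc

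The other 7 mevalonate and isoprenoid genes did not pass with overexpression. IDI1, which isomerises isopentenyl diphosphate, stood at 42.8, 31.3 and 36.7 CPM against 31.8, 25.2 and 28.1 (log2 0.38, SE 0.25, adjusted p = 0.299). Log2 fold changes of MVK, PMVK (phosphomevalonate kinase), MVD, FDPS (farnesyl diphosphate synthase), GGPS1 (geranylgeranyl diphosphate synthase) and ACAT2 (cytosolic acetoacetyl-CoA thiolase) ran from -0.45 for MVK to 0.14 for ACAT2. PMVK was lower in all 3 overexpression libraries (12.6 to 13.8 CPM) than in any control library (15.2 to 16.3 CPM), without passing (adjusted p = 0.407).

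In the knockdown, 2 of these 8 genes were called. IDI1 stood at 42.1, 18.8 and 36.7 CPM in the knockdown and at 17.6, 19.3 and 17.02 in its control. Replicates 1 and 3 were above all controls and replicate 2 lay among them. It rose by a log2 value of 0.86 (SE 0.25, adjusted p = 0.0287), and by 1.13 without replicate 2 (adjusted p = 0.000705). The call ended without knockdown replicate 1 or 3 or any 1 of the 3 controls (adjusted p up to 0.109). GGPS1, at a branch point towards protein prenylation and away from sterols, stood at 36.8, 38.8 and 30.8 CPM against 48.2, 50.1 and 54.2. All 3 knockdown libraries were below the controls, and it fell by 0.52 on the log2 scale (SE 0.16, adjusted p = 0.0372). That call ended without overexpression replicate 1, knockdown replicate 1 or 3, or any 1 of the 3 knockdown controls (adjusted p up to 0.107).

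FDPS, which joins isoprene units, showed the same split between knockdown libraries without a call. It stood at 76.8, 38.5 and 74.8 CPM against 57.9, 61.1 and 56.5 in the control (adjusted p = 0.744), so replicates 1 and 3 exceeded and replicate 2 undercut all controls. ACAT2 stood at 36.6, 16.0 and 28.4 CPM against 37.3, 32.1 and 27.6 (adjusted p = 0.47). MVK and MVD, at 7.18 to 16.1 CPM in the knockdown libraries, overlapped their controls (adjusted p = 0.382 and 0.79).

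The 12 genes from squalene to cholesterol gave 1 call with overexpression. TM7SF2, a sterol C14 reductase, stood at 21.4, 19.7 and 23.1 CPM with overexpression and at 26.4, 33.8 and 28.95 in the control, with no overlap. It fell by 0.48 on the log2 scale (SE 0.12, adjusted p = 0.0256). The call ended without any 1 of the 3 overexpression libraries or without control replicate 2 or 3 (adjusted p up to 0.106). FDFT1 was lower in all 3 overexpression libraries, at 136, 111 and 111 CPM against 163, 165 and 197, and missed the threshold (log2 -0.55, SE 0.19, adjusted p = 0.0608). MSMO1, the sterol C4 methyl oxidase, stood at 45.4, 37.4 and 38.5 CPM against 53.5, 46.0 and 66.2, also without overlap (adjusted p = 0.102). EBP, the sterol isomerase, lay in the other direction, at 71.6, 64.6 and 67.7 CPM against 53.9, 55.7 and 53.1 (log2 0.33, adjusted p = 0.336). Without knockdown replicate 2, whose omission raised the share of all genes called with overexpression to 27.7%, EBP and FDFT1 passed with overexpression (adjusted p = 0.0487 and 0.0222).

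In the knockdown 3 of the 12 were called, all higher. LSS, lanosterol synthase, which closes the sterol rings, stood at 66.5, 39.2 and 57.0 CPM in the knockdown and at 30.5, 32.8 and 29.1 in the control. No knockdown library overlapped the controls (40.9% of all genes did not overlap here), and LSS rose 1.76-fold (log2 0.82, SE 0.24, adjusted p = 0.0295). LBR, the lamin B receptor, which also carries sterol C14 reductase activity, stood at 151, 101 and 142 CPM against 81.4, 88.7 and 78.9, and rose 1.58-fold (log2 0.66, SE 0.17, adjusted p = 0.0186). TM7SF2 stood at 22.8, 24.5 and 24.9 CPM against 18.5, 17.6 and 17.7, and rose 1.35-fold (log2 0.43, SE 0.12, adjusted p = 0.0299). These 3 genes separated from the control in every knockdown library, replicate 2 included.

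The calls of LSS, LBR and TM7SF2 were close to the threshold. That of LSS ended without knockdown replicate 1 or 3 or any 1 control (adjusted p up to 0.104), that of LBR without knockdown replicate 1 or control replicate 1 or 3 (up to 0.0711), and that of TM7SF2 without knockdown replicate 2 or 3 or any 1 control (up to 0.0998). SQLE, squalene epoxidase, stood at 105, 51.1 and 103 CPM against 59.9, 57.6 and 59.7 (log2 0.55, SE 0.24, adjusted p = 0.112), and at 0.82 without replicate 2 (adjusted p = 0.00258). NSDHL, a sterol C4 decarboxylase, stood at 30.5, 19.8 and 31.6 CPM against 21.2, 18.4 and 20.1 (log2 0.46, adjusted p = 0.102), and at 0.64 without replicate 2 (adjusted p = 0.0135). CYP51A1, the lanosterol demethylase, stood at 152, 98.6 and 130 CPM against 159, 160.1 and 168, below all controls in every knockdown library but not called (log2 -0.36, SE 0.17, adjusted p = 0.139). SC5D, the sterol C5 desaturase, had log2 values of -0.07 (SE 0.18) and -0.03 (SE 0.18) in the overexpression and knockdown comparisons. DHCR7, the last reductase of a route to cholesterol, stood at 89.6, 45.3 and 68.9 CPM against 66.3, 65.0 and 60.6 (adjusted p = 0.781).

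**Figure D3:**
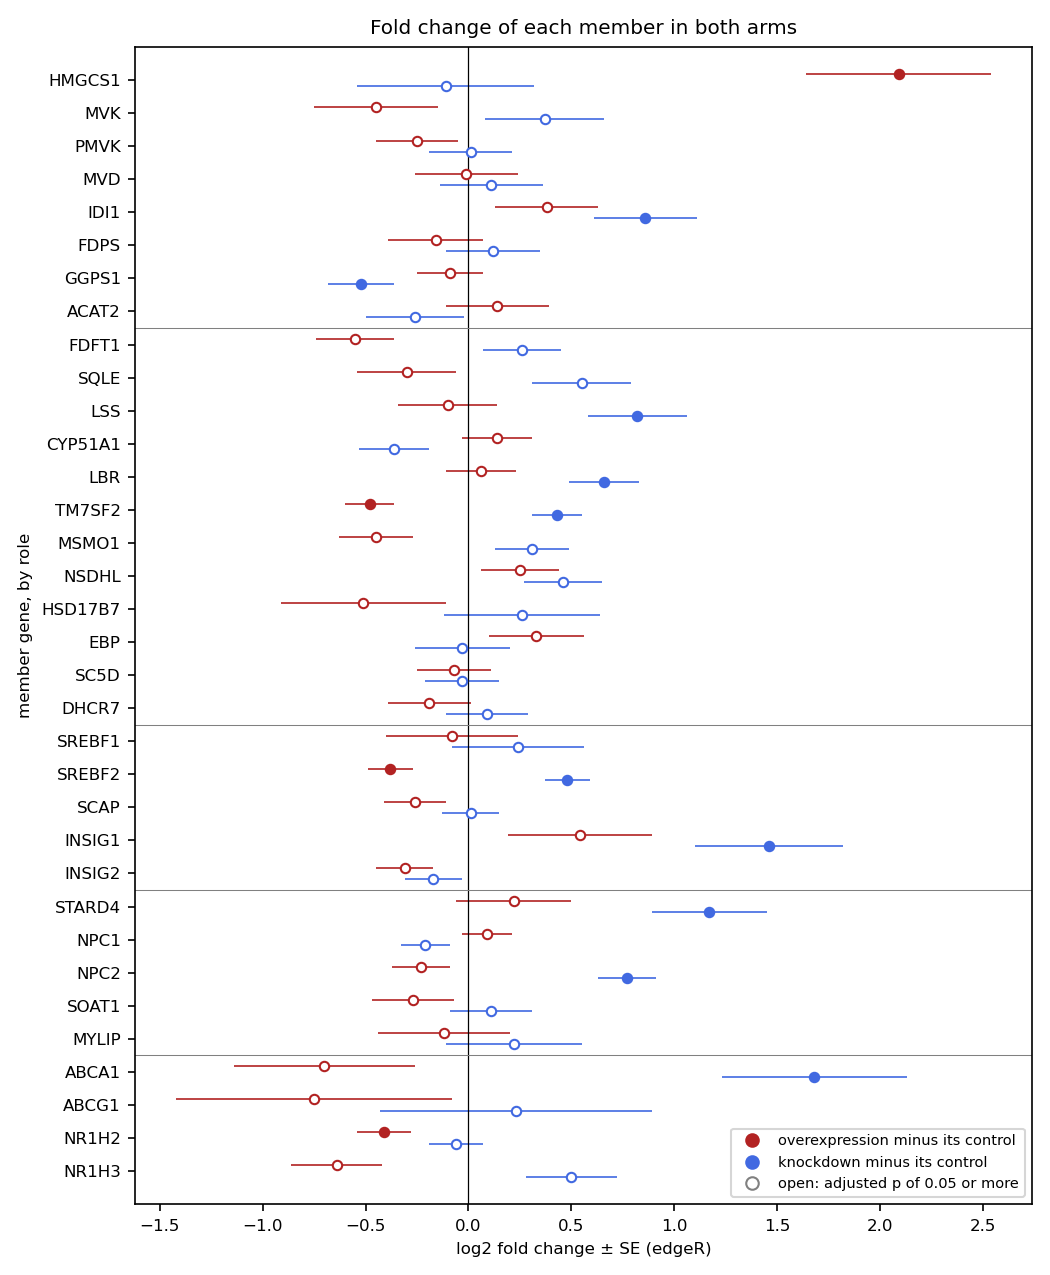
Log2 fold change ± SE of each member, overexpression minus its control (red) and knockdown minus its control (blue), with filled points at an adjusted p below 0.05 by edgeR. HMGCS1 stands alone at 2.09 with overexpression, while 9 filled blue points lie above 0 and 1, GGPS1, below.

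Of the 5 genes that control SREBP activity, SREBF2 passed in both arms. It stood at 128, 103 and 107 CPM with overexpression and at 145, 142 and 155 in that control, and fell by 0.38 on the log2 scale (SE 0.11, adjusted p = 0.0383). In the knockdown it stood at 148, 123 and 118 CPM against 92.7, 93.8 and 91.8, and rose by a log2 value of 0.48 (SE 0.11, adjusted p = 0.0117). Neither comparison had overlapping groups. The knockdown call held at every single omission (adjusted p up to 0.0452). The overexpression call ended without overexpression replicate 2 or 3, control replicate 2 or 3, or any 1 of the 3 knockdown controls (up to 0.139).

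SREBF2 is also the 1 member of 30 with a RefSeq promoter whose upstream 250 bases held the exact sterol regulatory element TCACNCCAC on either strand. Of 27305 promoters, 0.875% hold it, and elements with other letters were not searched for. The letters of SREBF2 are shown for that match (chr22:41832855-41833104, plus strand, RefSeq GRCh38.p14, 5′ to 3′). Capitals mark that element at bases 133 to 125 before the start and an NF-Y box at 106 to 102.
SREBF2: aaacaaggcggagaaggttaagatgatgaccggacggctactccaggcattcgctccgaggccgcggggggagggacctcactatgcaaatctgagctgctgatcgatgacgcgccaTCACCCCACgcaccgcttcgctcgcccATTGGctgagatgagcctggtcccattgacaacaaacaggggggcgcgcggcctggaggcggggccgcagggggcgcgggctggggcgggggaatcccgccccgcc

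INSIG1, the sterol-dependent retention protein and itself a target of SREBP2, rose in the knockdown. It stood at 39.7, 21.2 and 57.1 CPM against 11.03, 16.4 and 15.6, without overlap, a 2.74-fold rise (log2 1.46, SE 0.36, adjusted p = 0.0146). Without knockdown replicate 2, its lowest library, the log2 value was 1.75 (adjusted p = 0.00253), and without control replicate 1 it was 1.29 with the call ended (adjusted p = 0.0619). With overexpression INSIG1 stood at 109, 50.3 and 65.4 CPM against 56.3, 42.7 and 56.0, with overlap (log2 0.54, SE 0.35, adjusted p = 0.3). These values leave out assembled rows, which held 23.3% of its counts. With those rows added INSIG1 was called higher with overexpression (log2 1.18, adjusted p = 0.0177) as well as in the knockdown (log2 1.62, adjusted p = 0.00289). No library outside the knockdown control was below 21.2 CPM.

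SREBF1, which encodes the SREBP1 forms that favour fatty acid synthesis, passed in neither arm. It stood at 162, 237 and 97.4 CPM in the knockdown against 142, 141 and 137 in the control, with replicate 2 above and replicate 3 below all controls (adjusted p = 0.62). The make-up of its transcripts varied, as SREBF1-201 carried 21.2% ± 9.15 (SD, n = 3) of its counts in the overexpression control, 47.2% ± 13.2 with overexpression, 50.2% ± 11.6 in the knockdown and 68.1% ± 2.98 in the knockdown control. ENST00000395757, which starts further downstream, carried 43.8% ± 8.08 of the counts in the overexpression control and 20.4% ± 0.89 in the knockdown control. These shares are estimates from short reads and were not tested. SCAP stood at 36.8 to 42.7 CPM with overexpression against 41.0 to 55.8 (adjusted p = 0.228), and INSIG2 at 14.0 to 15.9 against 16.2 to 21.5 (adjusted p = 0.136). Both had log2 values between -0.17 and 0.01 in the knockdown.

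Among the 5 genes of transport, storage and receptor turnover, STARD4 and NPC2 rose in the knockdown. STARD4, a soluble carrier of cholesterol between membranes, stood at 21.7, 22.9 and 16.1 CPM against 8.51, 12.6 and 5.93, a 2.25-fold rise without overlap (log2 1.17, SE 0.28, adjusted p = 0.0137). The call ended without control replicate 1 or 3 (adjusted p up to 0.0529), and with assembled rows added, which held 21.2% of its counts, the log2 value was 0.69 (adjusted p = 0.0491). NPC2 stood at 93.3, 79.6 and 117 CPM against 56.8, 60.7 and 52.7, a 1.71-fold rise without overlap (log2 0.77, SE 0.14, adjusted p = 0.00291). That call held at every single omission (adjusted p up to 0.0206). NPC2 was the member with the smallest adjusted p in the knockdown, and its replicate 2 was the lowest of the 3 knockdown libraries yet above every control.

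With overexpression 0 of these 5 genes passed edgeR's test, 0 had an unadjusted p under 0.05, and DESeq2 and limma each called 0. STARD4 stood at 44.2, 32.4 and 29.2 CPM against 33.0, 22.6 and 35.4 (log2 0.22, SE 0.28, adjusted p = 0.61). NPC2 was at 59.8, 58.3 and 63.6 CPM against 68.4, 67.8 and 77.3, lower in every library but not called (adjusted p = 0.249). NPC1, the membrane partner of NPC2 in the lysosome, had log2 values of 0.09 (SE 0.12) with overexpression and -0.21 (SE 0.12) in the knockdown. SOAT1, which esterifies cholesterol for storage, had values of -0.27 (SE 0.20) and 0.11 (SE 0.20). MYLIP, a ubiquitin ligase that marks lipoprotein receptors for breakdown, stood at 11.2, 21.2 and 6.58 CPM in the knockdown against 9.21, 10.9 and 13.2 (adjusted p = 0.651).

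INSIG1 and STARD4 are shown together because both rose in the knockdown and both had their lowest levels in its control. The lines hold 250 bases before each RefSeq start on GRCh38.p14, 5′ to 3′: INSIG1 from chr7:155297628-155297877, plus strand, and STARD4 from chr5:111512536-111512785, minus strand. Capitals mark the NF-Y box (CCAAT or ATTGG) and, in INSIG1 at bases 55 to 50 before the start, the E-box CACGTG.
INSIG1: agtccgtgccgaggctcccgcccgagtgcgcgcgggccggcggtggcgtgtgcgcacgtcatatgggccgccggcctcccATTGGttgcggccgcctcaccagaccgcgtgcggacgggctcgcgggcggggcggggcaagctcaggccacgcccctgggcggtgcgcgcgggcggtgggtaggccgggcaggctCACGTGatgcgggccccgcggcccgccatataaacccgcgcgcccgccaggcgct
STARD4: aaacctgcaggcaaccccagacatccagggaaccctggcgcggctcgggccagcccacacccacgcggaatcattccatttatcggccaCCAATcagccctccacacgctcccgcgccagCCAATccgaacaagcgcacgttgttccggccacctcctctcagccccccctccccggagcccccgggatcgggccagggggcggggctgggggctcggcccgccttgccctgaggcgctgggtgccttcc

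**Figure D4:**
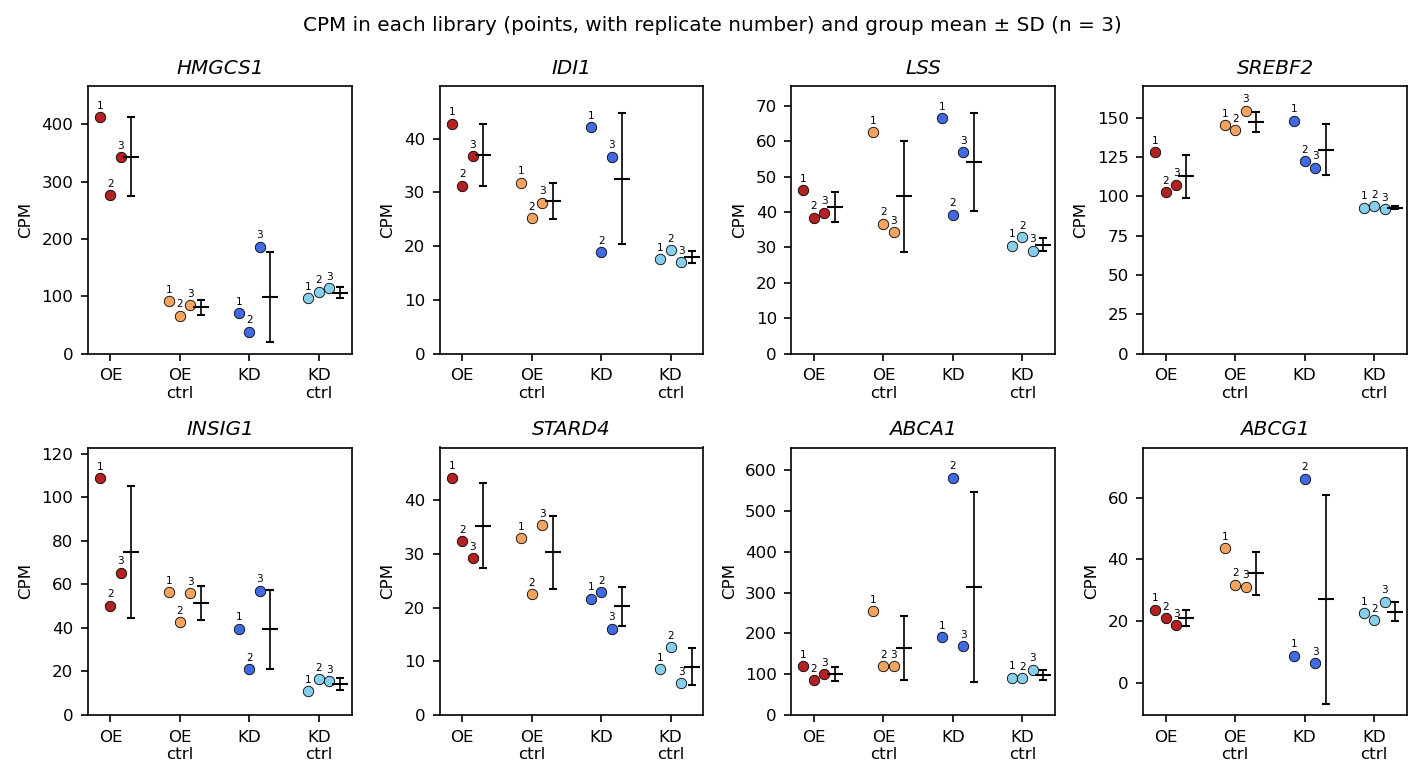
CPM of 8 members in each library (points, numbered by replicate) with the group mean ± SD (n = 3 libraries) beside them; axes are linear. HMGCS1 is high in the 3 overexpression libraries, INSIG1 and STARD4 are low in the knockdown control, and knockdown replicate 2 is far above the other libraries for ABCA1 and ABCG1.

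The 4 efflux and liver X receptor genes had log2 values below 0 with overexpression, from -0.75 for ABCG1 to -0.41 for NR1H2, and 1 of 4 was called. NR1H2, the broadly expressed liver X receptor beta, stood at 91.99, 92.4 and 90.3 CPM with overexpression and at 103, 128 and 135 in the control, and fell by 0.41 on the log2 scale (SE 0.13, adjusted p = 0.0441). The call ended without any 1 of the 3 overexpression libraries, control replicate 2 or 3, or any 1 of the 3 knockdown controls (adjusted p up to 0.152). NR1H3, liver X receptor alpha, stood at 11.9, 10.6 and 9.79 CPM against 19.3, 16.2 and 14.97 without overlap (log2 -0.64, SE 0.22, adjusted p = 0.0602). ABCG1, a cholesterol exporter to mature lipoproteins, stood at 23.8, 20.9 and 18.7 CPM against 43.6, 31.8 and 31.2 without overlap (log2 -0.75, SE 0.67, adjusted p = 0.455), and passed without knockdown replicate 2 (log2 -0.74, adjusted p = 0.0147). ABCA1, the exporter to lipid-poor apolipoproteins, stood at 119.6, 85.1 and 99.7 CPM against 255, 119.2 and 121 (log2 -0.70, SE 0.44, adjusted p = 0.285). Control replicate 1 was the high library of that group, and without it the ABCA1 value was -0.24 (adjusted p = 0.722).

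In the knockdown 1 of these 4 was called. ABCA1 stood at 191, 582 and 169 CPM in the knockdown and at 91.3, 91.2 and 111 in its control, without overlap, a 3.21-fold rise (log2 1.68, SE 0.45, adjusted p = 0.0207). Replicate 2 was above the other knockdown libraries by 3.24-fold, and without it the log2 value was 0.87 (adjusted p = 0.0449). The call ended without any 1 of the 3 knockdown controls (adjusted p up to 0.0705). ABCG1 stood at 8.82, 66.2 and 6.40 CPM against 22.7, 20.3 and 26.3, so that replicates 1 and 3 were below and replicate 2 above every control. With all libraries its log2 value was 0.23 (SE 0.66, adjusted p = 0.831), and without replicate 2 it was -1.60 (adjusted p = 0.000688). NR1H3 stood at 13.1, 12.4 and 12.6 CPM against 11.97, 8.72 and 6.30, above every control but not called (log2 0.50, SE 0.22, adjusted p = 0.118). NR1H2 had a log2 value of -0.06 (SE 0.13, adjusted p = 0.769).

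ABCA1 is shown as the efflux gene that rose (250 bases before the RefSeq start, chr9:104928156-104928405, minus strand, GRCh38.p14, 5′ to 3′). Capitals mark its E-box at bases 147 to 142 before the start.
ABCA1: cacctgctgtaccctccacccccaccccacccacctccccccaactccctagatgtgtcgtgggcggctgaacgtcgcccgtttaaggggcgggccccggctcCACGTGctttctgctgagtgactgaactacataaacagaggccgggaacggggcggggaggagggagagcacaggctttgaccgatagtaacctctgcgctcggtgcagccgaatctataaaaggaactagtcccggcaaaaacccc

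Across the 30 members with a RefSeq promoter, the NF-Y box CCAAT occurred on either strand of the 250 bases in 18 (60%), and in 33% of all 27305 promoters. The E-box CACGTG, whose letters read alike on both strands, occurred in 4 members (SCAP, INSIG1, ABCA1 and SC5D; 13.3%) and in 6.49% of all. For the liver X receptor repeat the search took a pair of exact AGGTCA half-sites with 4 bases between them. It occurred in 0 members and in 0.0146% of all promoters. Repeats with other letters were not counted, so the 0 does not mean that a promoter lacks one. The ABCA1 stretch above holds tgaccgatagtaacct, on the other strand a like pair with a letter changed in each half-site. No searched motif is contained in another. These are letter matches in a short window and describe no binding.

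Knockdown replicate 2 was the lowest of the 3 for 18 of 20 synthesis enzymes, while 36.4% of all genes were lowest there. GGPS1 was highest in it and TM7SF2 lay between. The mean of the enzymes' log2 CPM, each centred on its 12-library mean, was -0.36 in replicate 2 against 0.33 and 0.27 in replicates 1 and 3 and -0.09 to -0.05 in the knockdown control. For the 4 efflux and liver X receptor genes the same mean was 0.89 in replicate 2 against -0.29 and -0.47 in the other replicates, with ABCA1 at 2.04 and ABCG1 at 1.52 but NR1H2 at -0.05 and NR1H3 at 0.06. Against the mean of the other replicates, HMGCS1 was 3.37-fold, INSIG1 2.29-fold, IDI1 2.09-fold, and ACAT2, SQLE and EBP each 2.04-fold lower in replicate 2. In the other direction ABCG1 was 8.70-fold, ABCA1 3.24-fold, MYLIP 2.38-fold and SREBF1 1.82-fold higher. NR0B1 did not set replicate 2 apart, at 3.31 CPM between 2.99 and 5.84.

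Without replicate 2, 12 of 34 members were called in the knockdown, 10 higher and 2 lower, or 35.3% beside 28.8% of all genes (14.2% higher and 14.7% lower). SQLE and NSDHL joined the higher calls and ABCG1 the lower ones, and TM7SF2 left (adjusted p = 0.0501). Of the 20 synthesis enzymes, 18 had log2 values above 0 then, against 14 with all libraries, and their median went from 0.19 to 0.36. The median over all genes went from 0.03 to 0.01. Because replicate 2 was the lowest of the 3 for 18 of these enzymes, its omission was bound to raise most of their values. Signs turned for 8 members, of which ABCG1 was called. HMGCS1, ACAT2, EBP and SC5D went from below to above 0 (0.01 to 0.27), and MYLIP (0.22 to -0.32), SREBF1 (0.24 to -0.11) and SOAT1 (0.11 to -0.04) from above to below. LSS stood at 1.0 (adjusted p = 0.00757) and LBR at 0.82 (adjusted p = 0.00263). In this setting 2 knockdown libraries remain, and as in the main fit the 4 groups share an estimate of the spread. Omitting replicate 2 therefore also changed the SE of comparisons that it is not in. For ABCG1 with overexpression the SE was 0.67 with replicate 2 and 0.18 without it, at log2 values of -0.75 and -0.74.

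**Figure D5:**
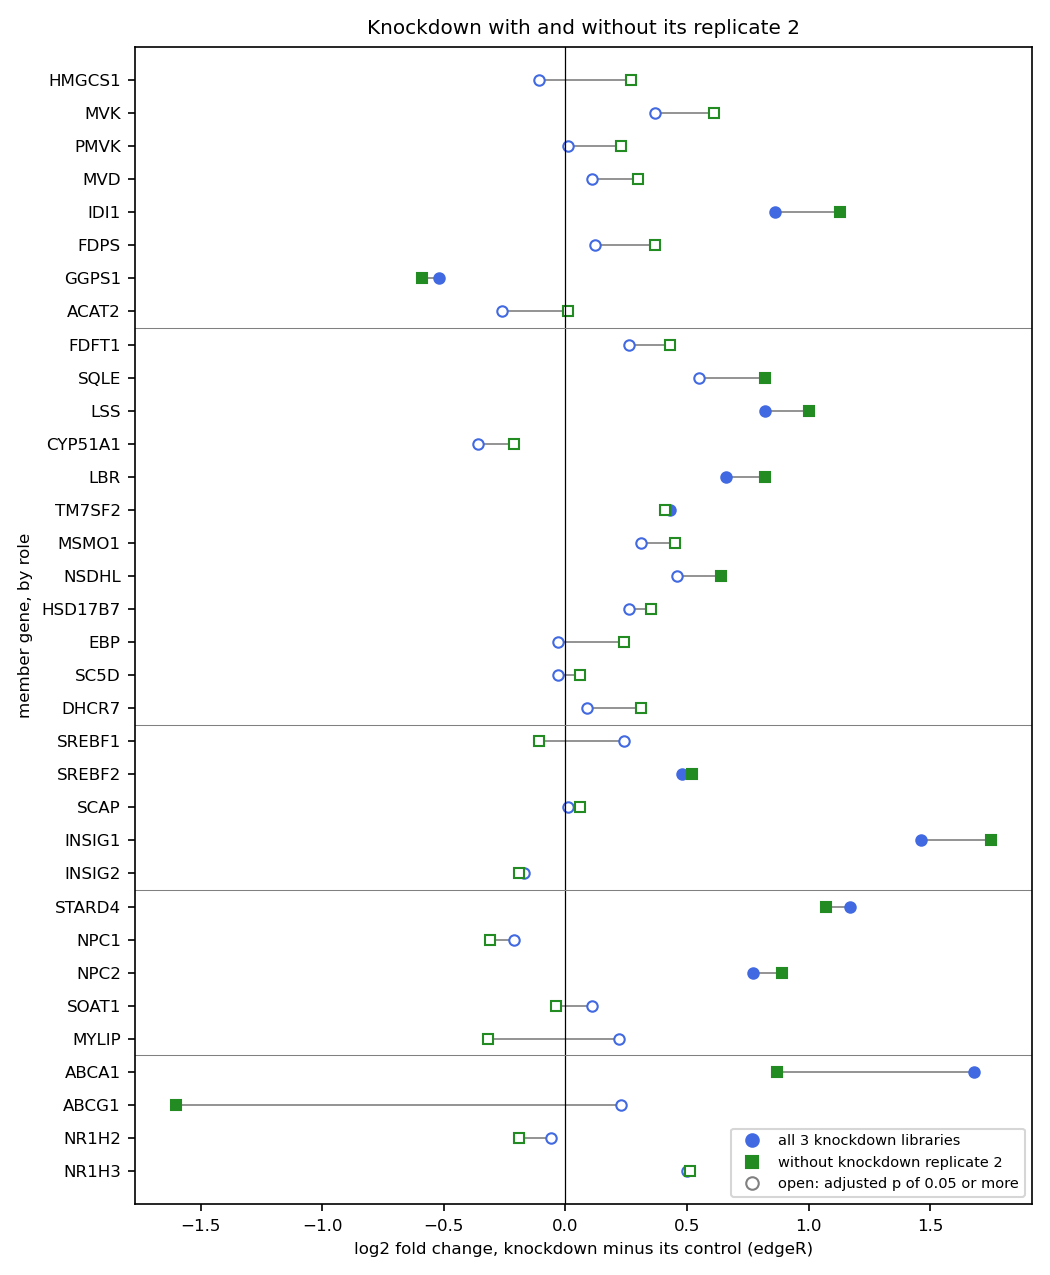
Log2 fold change of each member in the knockdown with all 3 libraries (blue circles) and without replicate 2 (green squares), filled at an adjusted p below 0.05 by edgeR. Most synthesis enzymes lie further right without replicate 2, while ABCA1 falls from 1.68 to 0.87 and ABCG1 goes from 0.23 to -1.60.

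The response to overexpression and the response to knockdown differed for 8 of 34 members, 23.5% beside 25.6% of all genes tested (13.1% above 0 and 12.6% below). The difference, overexpression response minus knockdown response, was above 0 for HMGCS1 (log2 2.21, SE 0.61, adjusted p = 0.0231) and below 0 for FDFT1, TM7SF2, MSMO1, SREBF2, NPC2, ABCA1 and NR1H3. Its size was -0.87 (SE 0.16, adjusted p = 0.00341) for SREBF2, -0.90 (SE 0.18, adjusted p = 0.00443) for TM7SF2 and -1.0 (SE 0.19, adjusted p = 0.00399) for NPC2. ABCA1 had a difference of -2.38 (SE 0.63, adjusted p = 0.0182), and of -1.56 without knockdown replicate 2 (adjusted p = 0.0145). These 4 negative differences held at every single omission (adjusted p up to 0.0465). SREBF2 and TM7SF2 were the members called in both arms, lower with overexpression and higher in the knockdown. The HMGCS1 difference ended without overexpression replicate 1, its control replicate 2, knockdown replicate 1 or its control replicate 3 (adjusted p up to 0.0581); without knockdown replicate 3 it was 3.07. The calls of FDFT1 and MSMO1 ended at 8 and 9 of the 12 single omissions (adjusted p up to 0.102 and 0.111), and that of NR1H3 without overexpression replicate 3 (adjusted p = 0.0524). Without knockdown replicate 2, 14 members were called (28.6% of all genes), as IDI1, LBR, LSS, MVK and SQLE joined below 0 and ABCG1 above 0 (log2 0.87, adjusted p = 0.037, from -0.98). Without overexpression control replicate 1, GGPS1 joined (adjusted p = 0.0255) and MSMO1 left (adjusted p = 0.0531).

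The control groups themselves differed for 10 of 34 members, 29.4% beside 33.4% of all genes, 9 higher and 1 lower in the overexpression control (17.2% and 16.1% of all genes). INSIG1 was 3.60-fold (log2 1.85, SE 0.36, adjusted p = 0.00361) and STARD4 3.36-fold (log2 1.75, SE 0.29, adjusted p = 0.00146) higher in the overexpression control. NR1H3 was 1.87-fold, TM7SF2 1.66-fold, NR1H2 1.63-fold and SREBF2 1.59-fold higher, and LBR, SOAT1 and MSMO1 were 1.72-fold, 1.502-fold and 1.48-fold higher. CYP51A1 was 1.39-fold lower (adjusted p = 0.0455). NR0B1 itself was higher in the overexpression control, at 44.4 ± 23.1 CPM against 16.9 ± 3.95 (SD, n = 3 each). This comparison shares its control libraries with both arms, so its values and theirs are not independent. For INSIG1 the knockdown mean, 39.3 CPM, lay between 14.3 in its own control and 51.7 in the overexpression control, and for STARD4 the 3 means were 20.2, 9.03 and 30.3 CPM. The calls of CYP51A1, MSMO1 and SOAT1 ended at 7, 4 and 5 of the 12 single omissions, and those of the other 7 genes at none. For SOAT1 the log2 value of 0.59 became 0.31 without overexpression control replicate 1 (adjusted p = 0.148). Without knockdown replicate 2, ABCA1, ABCG1, FDFT1, IDI1, MYLIP and NPC2 were called higher as well, and ACAT2 and FDPS lower. That made 18 members (41.3% of all genes).

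Other genes of the pathway came from a separate list of 60, of which 52 were tested. With overexpression 10 were called, 3 higher and 7 lower, or 19.2% of those tested, beside 18.1% of all genes. MBTPS1, the protease that makes the first cut in SREBP, stood at 156, 154 and 157 CPM against 202, 192 and 201, and fell by 0.35 on the log2 scale (SE 0.08, adjusted p = 0.0124). LRP1, a large endocytic receptor for lipoproteins, stood at 152, 223 and 183 CPM against 323, 457 and 424, and fell by 1.11 (SE 0.24, adjusted p = 0.0126). SCP2, a peroxisomal sterol carrier, fell by 0.47 (adjusted p = 0.0225). All 3 overexpression libraries were below all controls for each of these 3 genes. The call of LRP1 ended without overexpression replicate 3 (adjusted p = 0.053) and that of MBTPS1 without replicate 2 or 3 (up to 0.0572). That of SCP2 ended at 5 of the 12 single omissions (up to 0.0937).

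In the knockdown 12 of the 52 were called, 6 higher and 6 lower, or 23.1%, beside 23.9% of all genes. LRP1 stood at 400.4, 598 and 290.4 CPM against 136, 144 and 115, and rose 3.27-fold (log2 1.71, SE 0.25, adjusted p = 0.00107; 1.39 without replicate 2). NCEH1, which hydrolyses cholesterol esters, stood at 127, 153 and 184 CPM against 92.8, 97.3 and 87.9, and rose 1.67-fold (adjusted p = 0.00273). MBTPS1 and SCP2 rose by log2 values of 0.34 (adjusted p = 0.0101) and 0.45 (adjusted p = 0.0191). NFYB, a subunit of the factor that binds the CCAAT box, fell from 52.0 ± 3.84 to 28.8 ± 4.49 CPM (SD, n = 3; log2 -0.85, adjusted p = 0.00316). COQ2, which starts the ubiquinone branch, fell from 29.8 ± 2.14 to 18.7 ± 0.73 CPM (SD, n = 3; log2 -0.67, adjusted p = 0.00335). The calls of LRP1, NCEH1, MBTPS1, NFYB and COQ2 held at every single omission, and that of SCP2 ended without knockdown replicate 1 or any 1 control (up to 0.0836).

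Some members share exonic sequence with other annotated genes, and the sources used here do not state that counting used strand. Of the leading transcripts, 13 of 34 overlap an exon of another gene, 5 of them over 20% or more of their length. For HMGCS1 an antisense gene, AC114947.2, covers 20.3% of the transcript. FDPS shares 48.3% with RUSC1-AS1, GGPS1 26.1% with TBCE on the same strand, and ACAT2 45.8% with SOD2-OT1, 34.8% with SOD2 and 12.5% with TCP1, all on the opposite strand. CYP51A1 shares 88.6% with AC000120.2, a protein-coding gene model on the same strand. A transcript of that model, AC000120.2-202, carries the CYP51A1 symbol and is part of its sum, with 0.02% of the counts. Counts of these 5 genes are uncertain to the extent that reads were assigned to a gene outside their sums. HSD17B7, which has a near-identical pseudogene copy, is uncertain for the same reason.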

How the data were processed

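Transcripts of A549 cells were sequenced in 12 libraries, grouped by genotype and title in the labels into 4 groups of 3. The authors deposited expected counts and FPKM values per transcript for each library, per the file headers. Library preparation started from 3 µg of RNA with a NEBNext Ultra kit, per the labels. The submitters' processing notes list HISAT2 2.0.5, StringTie 1.3.1, Bowtie2 2.2.8, RSEM and fastp. Builds listed there are those of mouse (GRCm38, mm10), although the transcript identifiers are human, and were not used. No source used here gives the annotation release, filters or strand setting.

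Of 96247 rows, 82270 carry Ensembl transcript identifiers, and 82237 of these are in GENCODE 29 (GRCh38), the source of gene coordinates. Expected counts and FPKM were summed over these rows per symbol and count sums were rounded. The 13977 assembled rows (13.3% to 15.4% of counts per library) were left out and entered as an alternative. Symbols turned into dates were restored in 184 rows. No columns were identical between libraries.

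edgeR 4.0.16 in R 4.3.3 fitted all 12 libraries (glmQLFit and glmQLFTest, robust, TMM scaling, a mean per group, no covariate, 8 residual degrees of freedom) to the 11908 genes that reached 1 FPKM in 3 libraries or more; the biological coefficient of variation was 24.5%. The SE was derived from the fold change and the F statistic. The fit was also run on simulated counts. These had the same spread for every gene and no library that stood apart, so that run did not test those features of the data. Alternatives were DESeq2 1.42.0 and limma 3.58.1 on log2(FPKM + 1) and on log2(FPKM + 0.1), a scale that understates changes of low genes, and other scaling, filters, samples, a replicate block and the omission of libraries. Expected counts carry counting error, and PCR copies are not independent molecules, so depth limits low members such as HSD17B7 most.

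The members, the other pathway list, the markers and the tests were chosen with earlier results of these data known. Named genes are all 34 members by role, with library or group values for those called, NR0B1, and of the other pathway genes up to 4 called per arm with the smallest adjusted p (MBTPS1 and SCP2 are given in both arms; 1 gene that the rule names with overexpression is not reported here). Python 3.11.15 was used for the tables and promoter searches.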

Additional observations from a re-analysis of the deposited data

Results flagged for a closer look

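The responses of the arms, overexpression against its control minus knockdown against its control, differed by edgeR's test of that difference for 8 members. The log2 differences were 2.21 for HMGCS1, -0.81 for FDFT1, -0.90 for TM7SF2, -0.76 for MSMO1, -0.87 for SREBF2, -1.0 for NPC2, -2.38 for ABCA1 and -1.14 for NR1H3. FDFT1, MSMO1 and NR1H3 passed this test while passing in neither arm alone. The difference also contains the gap between the controls, which was itself called for TM7SF2, MSMO1, SREBF2 and NR1H3 (log2 0.73, 0.57, 0.67 and 0.9). That gap was not called for HMGCS1, FDFT1, NPC2 and ABCA1.

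Assembled transcripts that carry a member's symbol but no Ensembl identifier, which are left out of the gene sums except where said, held signal above the controls for INSIG1 and MYLIP. Their INSIG1 counts averaged 47.6 CPM with overexpression (43.7, 44.1 and 55.0) against 7.12, 0 and 0 in that control, and 8.24 CPM in the knockdown (8.87, 4.36 and 11.5) against 2.64, 0.36 and 0.42. For MYLIP they averaged 14.5 CPM with overexpression (14.1, 14.8 and 14.6) against 7.69, 6.12 and 4.56. Neither pair of groups overlapped in these 3 comparisons. The symbol of such a row was taken as deposited, and which exons it holds was not tested.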

How the results depend on the processing

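Of the members' called values under the 22 other settings (fewer for the difference of the arms), 60 of 88 with overexpression, 184 of 220 in the knockdown, 139 of 168 for the difference of the arms and 196 of 220 between the controls stayed called with the same sign; the others kept the sign and missed the threshold, and 0 turned. The number of members called with overexpression was 4, and 2 with no filter on low values (HMGCS1 and TM7SF2), 9 with assembled transcripts added and 8 without both overexpression control replicate 1 and knockdown replicate 2. Without both of these libraries the difference of the arms was called for 16 members in place of 8, and other pathway genes for 21 in place of 10 with overexpression and 20 in place of 12 in the knockdown, where DESeq2 called 19; of all genes, 38.5%, 37.5% and 37.7% were then called for the difference, with overexpression and in the knockdown. With only the groups compared in the fit, 17 members in place of 10 differed between the controls. The share of all genes called in that fit, or with no filter on low values, is not given here. The cause was not tested.

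Leaving out each library in turn, members called ranged from 0 to 7 with overexpression, 3 to 12 in the knockdown, 5 to 14 for the difference of the arms and 7 to 18 between the controls, and other pathway genes from 0 to 14 with overexpression and 7 to 19 in the knockdown. The share of all genes called moved too. With all libraries it was 18.1%, 23.9%, 25.6% and 33.4% for these 4 comparisons, and without knockdown replicate 2 it was 27.7%, 28.8%, 28.6% and 41.3%. DESeq2 called 25.9% of all genes with overexpression and 30% in the knockdown. Shares for most other omissions are not given here, so these counts alone show no change particular to the members. With overexpression the count was 0 without control replicate 2, where edgeR gave 9 members an unadjusted p under 0.05 and DESeq2 on all libraries called 6; it was 1 without overexpression replicate 2 or 3 or control replicate 3, 2 without overexpression replicate 1 or knockdown control replicate 2, and 7 without knockdown replicate 2. In the knockdown it was 3 without control replicate 1 or 3, 5 without control replicate 2 and 6 without knockdown replicate 1. The difference of the arms had 5 without overexpression replicate 3, knockdown replicate 1 or knockdown control replicate 3, and 14 without knockdown replicate 2, which gave 18 between the controls. Other pathway genes with overexpression numbered 0 without overexpression replicate 3 (14 with an unadjusted p under 0.05 by edgeR; DESeq2 on all libraries called 14), 1 without replicate 2, 6 without replicate 1 and 2 without control replicate 2 or 3; in the knockdown they numbered 19 without overexpression control replicate 1 and 7 without knockdown control replicate 3.

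The main fit did not pair libraries by replicate number. Deviations of same-numbered libraries correlated at 0.20, 0.13 and 0.01 in the overexpression arm, where unlike-numbered ones ran from -0.18 to 0.13. In the knockdown arm the values were -0.01, -0.09 and -0.06, with unlike-numbered ones from -0.08 to 0.10. With the replicate number as a block, 4 members were called with overexpression, 8 in the knockdown, 7 for the difference and 9 between the controls, and of the other pathway genes 5 and 12. The share of all genes called under that block is not given here. Depth limits the low members most (HSD17B7, MVK and MVD).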

Other observations

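Adding the assembled transcripts to the gene sums changed what overexpression showed for some members. INSIG1, the sterol-dependent retention protein, was then called higher with overexpression (log2 1.18, adjusted p = 0.0177 by edgeR) as well as in the knockdown (log2 1.62, adjusted p = 0.00289). HSD17B7, whose assembled rows held 84.4% of its counts, stood at 8.23, 7.49 and 5.95 CPM in those rows with overexpression against 14.1, 18.6 and 19.8, and its sum fell by a log2 value of 1.16 (adjusted p = 0.00166). SCAP, the SREBP escort, with 44.2% of its counts in such rows, fell by 0.39 (adjusted p = 0.0115). Assembled rows of ABCG1 held 50.1% of its counts and stood at 11.1, 20.3 and 13.9 CPM with overexpression against 38.4, 61.2 and 63.2 without overlap, while the sum did not pass (log2 -1.31, adjusted p = 0.153). Of all genes tested, 23.3% were called with overexpression when these rows were added.

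The transcripts credited with ABCG1 also varied. ABCG1-203 carried 81.5% ± 8.19 (SD, n = 3) of its Ensembl counts with overexpression, 40.8% ± 5.97 in that control and 27.6% ± 5.10 in the knockdown control. In the knockdown libraries its share was 43.7%, 49.9% and 0.21%. Shares between transcripts of 1 gene are estimates, and their spread over repeat estimates was not measured.

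In overexpression control replicate 1, 11 of 20 synthesis enzymes were the highest of the 3 libraries, while 43.9% of all genes were highest there. ABCA1 stood at 255 CPM in it, against 119.2 and 121 in the other 2 libraries of the group.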
